A study of Mus musculus with 2 samples.

Results

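The 5 genes described here encode inhibitors of the cyclin-dependent kinases, the enzymes that move a cell through its division cycle. They are *Cdkn1a*, *Cdkn1b* and *Cdkn1c* of the CIP/KIP group and *Cdkn2c* and *Cdkn2d* of the INK4 group, and they were chosen by gene symbol, 5 of the 27998 gene rows of the count matrix. All 5 were detected in both libraries of the series, which held 7411 cells with 500 or more detected genes. Their transcripts were counted by library and by whether a cell carried transcripts of mitosis or of DNA replication.

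CIP/KIP proteins bind complexes of cyclins with their kinases and can block several of them, those of cyclin E and cyclin A with Cdk2 among them. INK4 proteins are narrower, since they bind the kinases Cdk4 and Cdk6 and keep them from pairing with D-type cyclins. When cyclin D and cyclin E kinases are active they phosphorylate the retinoblastoma protein and its relatives, which releases E2F factors and opens the genes of DNA replication. In blood-forming tissue these inhibitors are known for holding stem cells in quiescence and for the exit from the cycle that goes with terminal differentiation of myeloid cells.

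The question behind the libraries was what the loss of *Kat2a*, a histone acetyltransferase gene, does to *MLL-AF9* acute myeloid leukemia. Donor mice, aged 6 to 10 weeks, carried *Kat2a* Flox/Flox alleles and were either Mx1-Cre -/- (Kat2a-WT) or Mx1-Cre+/- (Kat2a-KO), and both were given pIpC, an inducer of interferon, which switches on the interferon-responsive Mx1 promoter wherever the Cre transgene is present. Marrow was taken 4 to 6 weeks later, depleted of lineage-positive cells, transduced with a retrovirus carrying the *MLL-AF9* fusion, and grown in lethally irradiated recipients. Bone marrow of terminal leukemias was frozen, thawed and pooled, 5 leukemias with the Kat2a-WT genotype and 4 with Kat2a-KO, and YFP-positive cells that excluded a Hoechst dye and passed a singlet gate were used for 10x Genomics 3′ libraries, the reporter marking cells that carry the fusion. There was 1 library per genotype, so no comparison between genotypes has a replicate, no test was made, and all intervals are 95% intervals that cover counting error only.

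The WT-labelled library kept 3866 of 4069 cells with 11669427 UMIs (unique molecular identifiers, tags by which each captured transcript is counted only 1 time), and the KO-labelled library kept 3545 of 4240 cells with 7920256 UMIs. The median kept cell held 2588.5 UMIs in the WT-labelled library and 1884 in the KO-labelled library. *Kat2a* went against the labels, with 12.2 CPM (UMIs of a gene per 1e+06 UMIs of the library) in the WT-labelled library and 95.8 CPM in the KO-labelled library. The excised locus still gives a transcript with the last exon, which 3′ counting reads, so *Kat2a* does not check the labels. Why *Kat2a* was higher with the KO label was not tested. If the labels were exchanged between the libraries, every direction given here between them would turn. The libraries are called by their labels throughout. All 3 leukocyte markers (4253 and 3614 CPM in the WT- and KO-labelled libraries), all 11 granulocyte markers (78549 and 76162), all 6 primary-granule progenitor markers (15252.5 and 13608), all 12 monocyte or macrophage markers (2309 and 2097) and all 6 stem and progenitor markers (400.1 and 359) had UMIs in both libraries, and 28 barcode sequences occurred in both. Markers of other lineages moved with the label. The summed erythroid markers (7 of 7 with UMIs in each library) stood at 208 and 539 CPM in the WT- and KO-labelled libraries, megakaryocyte markers (4 of 4) at 20.8 and 135 CPM, and mast cell or basophil markers (3 of 4 in each, with *Prss34* at 0) at 94.5 and 197 CPM. The 5 markers of T or NK cells summed to 197 and 318 CPM with *Cd8a* at 0 in both. *Nkg7*, 1 of these 5, was also among the leading genes of the primary-granule progenitor-like cluster 6 described below. That sum is therefore not specific to T or NK cells. The part of the markers of other lineages in the differences below was not tested.

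The members lie on 5 chromosomes (GRCm38, GENCODE M21). *Cdkn1a* is at chr17:29090976-29100727 on the plus strand and *Cdkn1b* at chr6:134920401-134925513 on the plus strand. *Cdkn1c* is at chr7:143458339-143461050 on the minus strand, *Cdkn2c* at chr4:109660876-109667189 on the minus strand, and *Cdkn2d* at chr9:21288410-21291407 on the minus strand. All are short protein-coding genes whose annotated transcripts have between 1 and 4 exons. The longest coding sequences run from 477 bases in *Cdkn1a* to 1044 bases in *Cdkn1c*, and those of the INK4 pair are nearly equal, at 504 bases in *Cdkn2c* and 498 in *Cdkn2d*.

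The promoters of *Cdkn1a* and *Cdkn1b* are shown because these members lay furthest apart between the libraries, 1 above and 1 below, and the sequence upstream of a start is where transcription factors can act on a gene. The RefSeq table (GRCm38.p6) held 6 promoter windows for 4 of the 5 members, and *Cdkn1c* was not matched. Each line gives the 250 bases before an annotated start, 5′ to 3′ on the strand of the gene, and capitals mark the motifs that a search of both strands found: a p53 response element, the GC box GGGCGG and the CCAAT box CCAAT. The window of *Cdkn1a* is chr17:29090729-29090978 and that of *Cdkn1b* chr6:134920151-134920400, both on the plus strand.
Cdkn1a: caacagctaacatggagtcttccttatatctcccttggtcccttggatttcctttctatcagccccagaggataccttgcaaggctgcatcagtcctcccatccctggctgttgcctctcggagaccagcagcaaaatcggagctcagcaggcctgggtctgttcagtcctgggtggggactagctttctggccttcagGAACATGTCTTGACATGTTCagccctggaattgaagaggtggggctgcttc
Cdkn1b: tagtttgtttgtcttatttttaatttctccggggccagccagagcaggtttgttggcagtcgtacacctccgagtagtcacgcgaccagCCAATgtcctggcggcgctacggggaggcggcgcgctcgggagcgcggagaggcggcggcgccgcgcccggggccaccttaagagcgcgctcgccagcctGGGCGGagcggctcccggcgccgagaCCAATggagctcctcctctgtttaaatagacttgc

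The element in the printed *Cdkn1a* window spans chr17:29090928-29090947, and its first base lies 51 bases before the annotated start of that window. It holds 1 mismatch to the consensus, and the search allowed 1 after a search without mismatches had found no match in any member. With 1 mismatch allowed, 19 of 32851 promoter windows of the mouse genome held such an element (0.0578%), and without mismatches 3 did (0.00913%). A GC box occurred once upstream of *Cdkn1b* and 3 times each in the windows chr4:109666757-109667006 of *Cdkn2c* and chr9:21291210-21291459 of *Cdkn2d*, which reach into the genes as GENCODE draws them and are not printed, against at least 1 in 32.7% of all windows. CCAAT occurred 2 times upstream of *Cdkn1b* and 1 time upstream of *Cdkn2d*, against at least 1 in 33.8% of all windows. *Cdkn1a* and *Cdkn2c* each have a further annotated window, chr17:29093519-29093768 with 2 GC boxes and chr4:109665373-109665622 with none of the motifs searched. The further window of *Cdkn1a* has a CpG count of 19 and no p53 element. Which start of *Cdkn1a* these cells used was not tested. The E2F octamers TTTCCCGC, TTTGGCGC, TTTCGCGC and TTTGCCGC, at least 1 of which was in 1.86% of all windows, and the cell cycle homology region TTTGAA, in 16.0%, were found in none of the 6 windows, which says only that these letters are not there. The CpG count ranged from 2 in the printed window of *Cdkn1a* to 29 in the *Cdkn2c* window with the GC boxes, against a median of 6 over all windows.

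*Cdkn1a* stood highest of the 5 in the KO-labelled library relative to the other library. It encodes the inhibitor best known as a target of p53 after DNA damage. Its level was 64.7 CPM in the WT-labelled library (755 UMIs, interval 60.2 to 69.5) and 121 CPM in the KO-labelled library (957 UMIs, interval 113 to 129). The intervals did not overlap, and the log2 ratio of KO over WT was 0.90 (interval 0.76 to 1.04), or 1.87-fold.

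*Cdkn1b* and *Cdkn1c* stood lower in the KO-labelled library. *Cdkn1b*, an inhibitor that accumulates in resting cells and is removed by ubiquitination when they enter the cycle, was the rarest of the 5. It was at 29.2 CPM in the WT-labelled library (341 UMIs, interval 26.2 to 32.5) and 12.6 CPM in the KO-labelled library (100 UMIs, interval 10.3 to 15.4). The log2 ratio was −1.21 (interval −1.55 to −0.89), the lowest of the 5. *Cdkn1c*, an imprinted gene expressed from the maternal allele and linked to quiescence of blood stem cells, was at 109 CPM in the WT-labelled library (1275 UMIs, interval 103 to 115) and 65.4 CPM in the KO-labelled library (518 UMIs, interval 59.9 to 71.3). Its log2 ratio was −0.74 (interval −0.89 to −0.59). For both genes the intervals of the libraries lay apart.

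The INK4 pair parted. *Cdkn2c*, which in blood-forming cells is known for limiting stem cell self-renewal and for the cell cycle exit of plasma cells, was the most abundant member in the WT-labelled library at 353 CPM (4114 UMIs, interval 342 to 363). In the KO-labelled library it was at 205 CPM (1620 UMIs, interval 195 to 215), a log2 ratio of −0.79 (interval −0.87 to −0.70). *Cdkn2d*, whose product binds the same kinases, was at 298 CPM in the WT-labelled library (3481 UMIs, interval 288 to 308) and 348 CPM in the KO-labelled library (2758 UMIs, interval 335 to 361). The order of the pair was thus reversed between the libraries. The log2 ratio of *Cdkn2d* was 0.22 (interval 0.15 to 0.30), and in cells thinned to 1000 UMIs each it was 0.075 (interval −0.037 to 0.19), which includes 0.

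Against a fold of 1.5, 1 member was higher and 3 were lower in the KO-labelled library. Among the 9307 genes with at least 50 UMIs, 6.79% were higher by that fold and 11.8% were lower, with a median log2 ratio of −0.014. The share of those genes with a lower ratio was 97.5% for *Cdkn1a*, 73.8% for *Cdkn2d*, 8.08% for *Cdkn1c*, 7.30% for *Cdkn2c* and 2.43% for *Cdkn1b*. Each level is a share of UMIs at transcript ends and was not divided by gene length, since a 3′ library counts each transcript once. On that scale the 5 genes summed to 854 CPM in the WT-labelled library (interval 837 to 871) and 752 CPM in the KO-labelled library (interval 733 to 771), a log2 ratio of −0.18. *Cdkn1a* made up 7.58% of the summed UMIs in the WT-labelled library and 16.1% in the KO-labelled library, while the share of *Cdkn2c* was 41.3% and 27.2%.

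**Figure D1:**
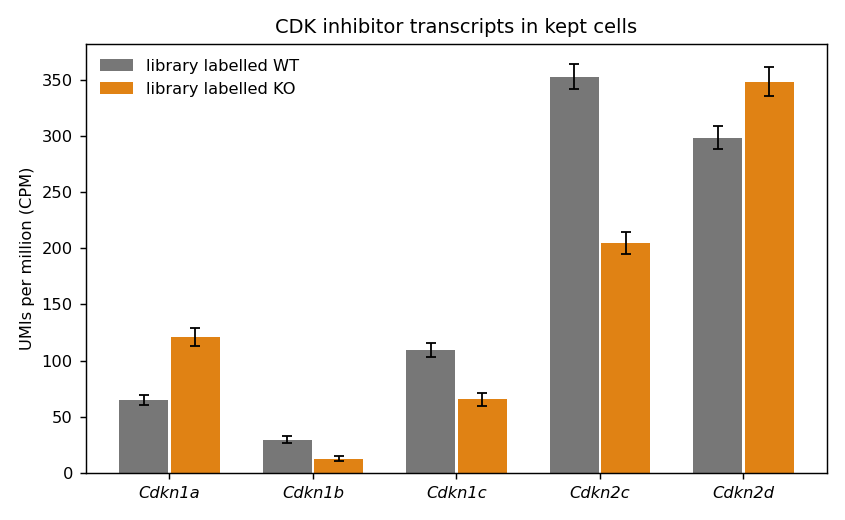
Levels of the 5 CDK inhibitor genes in CPM (vertical axis) in kept WT-labelled cells (grey bars) and the KO-labelled library (orange bars). Lines are exact 95% Poisson intervals of the summed UMIs and cover counting error only. *Cdkn1a* is at 64.7 and 121 CPM, *Cdkn2c* at 353 and 205 CPM, and *Cdkn2d* at 298 and 348 CPM.

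The share of cells with a UMI followed the levels for 4 members once depth was made equal. In cells thinned to 1000 UMIs (3800 of the WT-labelled library and 3351 of the KO-labelled library), *Cdkn1a* was seen in 5.89% of WT-labelled cells (interval 5.17% to 6.69%) and 9.31% of the KO-labelled library (8.35% to 10.3%). *Cdkn1b* was seen in 128 and 53 cells (3.37% and 1.58%), *Cdkn1c* in 304 and 176 cells, and *Cdkn2c* in 27.4% and 16.4%, each with intervals that lay apart. *Cdkn2d* was seen in 26.4% and 26.5% of cells, with overlapping intervals. At the cells' own depth the shares were 13.2% and 16.3% for *Cdkn1a*, 7.35% and 2.28% for *Cdkn1b*, 16.9% and 9.96% for *Cdkn1c*, 48.7% and 27.6% for *Cdkn2c*, and 48.7% and 43.0% for *Cdkn2d*. No cell class in these libraries is known to lack these genes, so the share that free RNA alone would give was read only for *Cdkn1c*, from the clusters with few of its UMIs described below.

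Cells were placed in 3 classes by the transcripts they carried. A cell with at least 3 UMIs of 36 mitotic genes was put in the mitotic class, a remaining cell with at least 3 UMIs of 39 replication genes in the S class, and all others in the class with neither. The mitotic class held 1229 cells (31.8%) in the WT-labelled library and 1323 (37.3%) in the KO-labelled library, the S class 807 (20.9%) and 754 (21.3%), and the class with neither 1830 (47.3%) and 1468 (41.4%). The classes are ranges of a count, not cell types, and between 241 and 372 cells of each class in a library had 2 or 3 UMIs of a list. The median depth fell from 3817 UMIs in the mitotic class to 1869 in the class with neither in the WT-labelled library, and from 2550 to 1407.5 in the KO-labelled library, so a shallow dividing cell could be placed in the class with neither. In cells thinned to equal depth, 2 UMIs of a list were enough to place a cell. The S class then held 21.2% (interval 19.9% to 22.5%) of WT-labelled and 25.7% (24.2% to 27.2%) of KO-labelled cells. The mitotic class held 26.4% and 35.9%, and the class with neither 52.4% and 38.4%. In each class the intervals of the libraries lay apart.

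*Cdkn2d* was the member with the sharpest dip in the S class, in both libraries. In the WT-labelled library it was at 333 CPM in the mitotic class (interval 318 to 349), 165 CPM in the S class (150 to 181) and 348 CPM in the class with neither (330 to 368). The same classes of the KO-labelled library were at 413 CPM (393 to 433), 165 CPM (146 to 186) and 367 CPM (342 to 393). The S class lay below both other classes in each library with no overlap of intervals. The log2 ratio of S over neither was −1.08 in the WT-labelled library (interval −1.23 to −0.92) and −1.15 in the KO-labelled library (−1.35 to −0.95). Every alternative run kept it below 0, with values between −1.43 and −0.65 in the WT-labelled library and between −1.18 and −0.67 in the KO-labelled library. The mitotic and neither classes of *Cdkn2d* differed less, and the sign of that ratio changed over the alternatives in class limit, depth and cells, from −0.49 to 0.32 in the WT-labelled library and from −0.17 to 0.57 in the KO-labelled library.

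The counts of mitotic UMIs per cell gave a finer view of *Cdkn2d*. In the WT-labelled library its level was 309 CPM in cells with 0 mitotic UMIs, 204 CPM with 1 to 2, 142 CPM with 3 to 9 and 411 CPM with 10 or more. The same bins of the KO-labelled library were at 307, 238, 244 and 485 CPM. *Cdkn2d* was thus lowest in the middle bins and highest in the cells richest in mitotic transcripts, in both libraries, and the intervals of the last bin lay above those of all other bins.

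**Figure D2:**
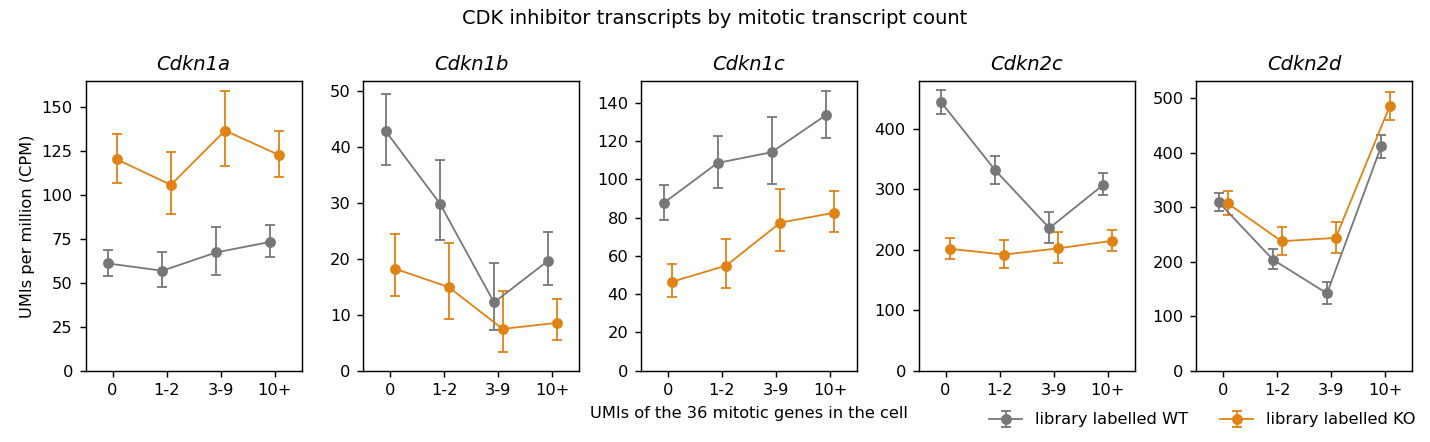
Levels of the 5 genes (CPM, vertical axis) in cells grouped by their number of UMIs of the 36 mitotic genes (horizontal axis), for the WT-labelled library (grey) and the KO-labelled library (orange). Points are CPM of summed UMIs and lines exact 95% Poisson intervals. *Cdkn2d* falls to 142 CPM at 3 to 9 mitotic UMIs in the WT-labelled library and reaches 411 CPM at 10 or more, and *Cdkn1a* shows no such course.

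The dip was also seen within clusters of cells, which need not be of 1 cell type. The cells were grouped into 12 k-means clusters made without the 5 genes, and the classes were compared within each cluster and library that held at least 50 cells of both, a comparison chosen after the values by class had been seen. *Cdkn2d* was lower in the S class than in the class with neither in 11 of 11 such pairs, and the interval lay below 0 in 7 of them. It was lower than in the mitotic class in 7 of 7 pairs, with the interval below 0 in 5. The median log2 ratios were −0.90 and −0.99. For mitotic over neither, *Cdkn2d* was lower in 3 of 4 pairs and higher in 1, with the interval below 0 in 1 and a median of −0.31.

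*Cdkn1b* was highest in cells with neither set of transcripts. In the WT-labelled library it was at 17.5 CPM in the mitotic class, 20.6 CPM in the S class and 51.0 CPM in the class with neither, and the last interval (44.1 to 58.7) lay above the others. The KO-labelled levels were 8.25, 14.0 and 19.4 CPM from 33, 23 and 44 UMIs. The mitotic class lay below the class with neither by log2 ratios of −1.54 (interval −1.92 to −1.17) and −1.23 (−1.93 to −0.55) in the WT- and KO-labelled libraries. The second of these did not hold in cells with at least 1000 detected genes, where it was 1.26 with an interval from −1.38 to 6.63. Within clusters the mitotic class was lower in 4 of 4 pairs, each with an interval that included 0.

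Over all kept cells, *Cdkn2c* was likewise highest in the class with neither in the WT-labelled library, with no such gap in the other. It stood at 287 CPM in the mitotic class (interval 272 to 302), 306 CPM in the S class (285 to 327) and 474 CPM in the class with neither (453 to 497) of the WT-labelled library. Their KO-labelled counterparts were 211 CPM (197 to 226), 177 CPM (157 to 198) and 213 CPM (195 to 233), where the mitotic class and the class with neither overlapped. The log2 ratio of mitotic over neither was −0.73 (interval −0.83 to −0.63) in the WT-labelled library and −0.017 (−0.18 to 0.15) in the KO-labelled library, and these intervals lie apart. In cells with at least 1000 genes they were −0.57 (−0.70 to −0.43) and −0.22 (−0.57 to 0.15) and overlapped. Within clusters, the mitotic class was lower in all 4 pairs, 1 of the WT-labelled library and 3 of the KO-labelled library, with the interval below 0 in 2 of them. Read across libraries, the log2 ratio of KO over WT was −1.15 in the class with neither, −0.79 in the S class and −0.44 in the mitotic class.

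Over all kept cells, *Cdkn1c* was higher in the mitotic class. It was at 128, 113 and 82.1 CPM in the mitotic class, the S class and the class with neither of the WT-labelled library, and at 81.0, 48.6 and 50.2 CPM in the KO-labelled library. The log2 ratio of mitotic over neither was 0.64 (interval 0.44 to 0.84) and 0.69 (0.38 to 1.01). In cells with at least 1000 genes these were 0.13 and −0.52, with intervals that included 0, and the direction in the KO-labelled library was turned. Within clusters it was higher in 1 of 4 pairs, with the interval above 0 in cluster 7 of the KO-labelled library, lower in 2, with intervals that included 0, and without a UMI in the remaining pair.

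Over all kept cells, *Cdkn1a* varied least between the classes. It was at 71.5, 66.8 and 54.1 CPM in the mitotic class, the S class and the class with neither of the WT-labelled library, and at 127, 114 and 115 CPM in the KO-labelled library. The log2 ratio of mitotic over neither was 0.40 (interval 0.15 to 0.65) and 0.14 (−0.082 to 0.36), and in the WT-labelled library it was −0.039 where 1 UMI was enough to place a cell. In cells with at least 1000 genes the ratio was larger, 0.79 (interval 0.39 to 1.21) in the WT-labelled library and 0.76 (0.11 to 1.49) in the KO-labelled library. For S over neither the log2 ratio was 0.30 (interval 0.0095 to 0.60) in the WT-labelled library and −0.013 (−0.29 to 0.26) in the KO-labelled library. Within clusters, mitotic over neither was higher in 3 of 4 pairs, each of the 4 with an interval that included 0. S over neither was higher in 9 of 11 pairs, with the interval above 0 in 4, all of the WT-labelled library. The difference between libraries was present in each class, with log2 ratios of KO over WT of 0.83 in the mitotic class, 0.77 in the S class and 1.09 in the class with neither.

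**Figure D3:**
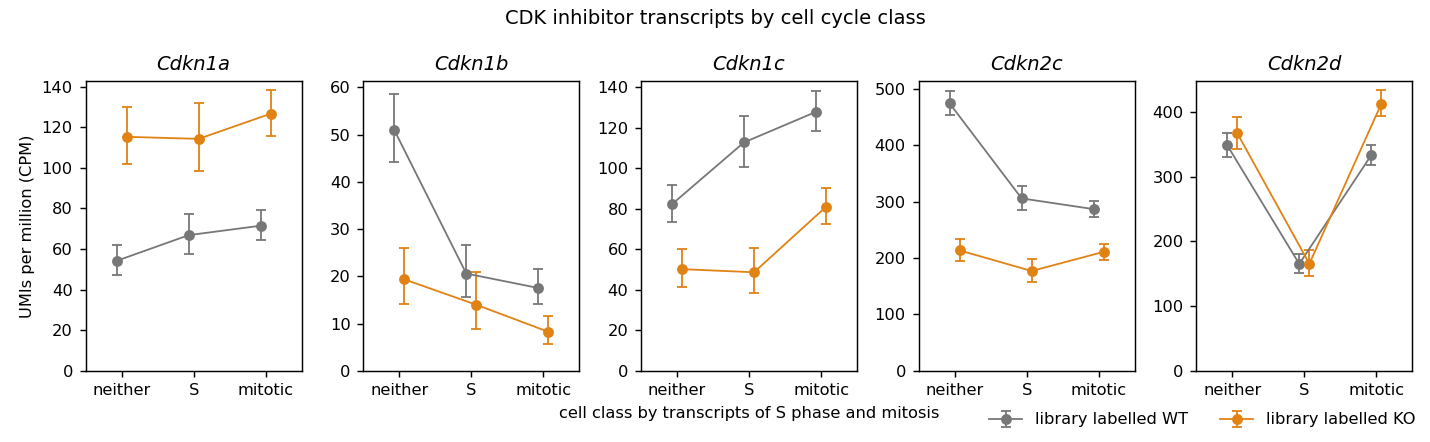
Levels of the 5 genes (CPM, vertical axis, from 0) in cells with neither set of transcripts, with S-phase transcripts and with mitotic transcripts, for the WT-labelled library (grey) and the KO-labelled library (orange). Points are CPM of summed UMIs and lines exact 95% Poisson intervals for counting error. *Cdkn2d* is at 165 CPM in the S class of both libraries, and *Cdkn2c* reaches 474 CPM in cells with neither in the WT-labelled library against 213 CPM in the KO-labelled library.

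Against a fold of 1.5 for mitotic over neither, 1 member (*Cdkn1c*) was higher and 2 (*Cdkn1b* and *Cdkn2c*) were lower in the WT-labelled library, where 24.4% of 7688 genes were higher and 16.8% were lower. In the KO-labelled library, *Cdkn1c* was higher and *Cdkn1b* lower, where 19.8% of 6732 genes were higher and 17.9% were lower. For S over neither, 3 members (*Cdkn1b*, *Cdkn2c* and *Cdkn2d*) were lower and 0 higher in the WT-labelled library, where 11.5% of 6968 genes were lower and 18.0% higher. With the KO label, 1 (*Cdkn2d*) was lower and 0 were higher, where 12.1% of 5563 genes were lower and 13.3% higher. For KO over WT, *Cdkn1a* was higher in each class, against 5.86% of genes in the mitotic class, 8.40% in the S class and 11.9% in the class with neither. Lower by that fold were *Cdkn1b* and *Cdkn1c* in the mitotic class against 11.1% of genes, *Cdkn1c* and *Cdkn2c* in the S class against 12.1%, and *Cdkn1b*, *Cdkn1c* and *Cdkn2c* in the class with neither against 10.8%. The share of genes with a lower S over neither ratio than *Cdkn2d* was 3.27% in the WT-labelled library and 2.84% in the KO-labelled library.

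The clusters show where in the leukemia each gene was found. Clusters 4 and 12 were granulocyte-like (*Retnlg* and *Mmp9* among the leading genes of both), as was cluster 7 (*Camp* and *Ngp*). Of the 11 granulocyte markers, 10 stood 1.5-fold or more above all other cells in clusters 4 and 12, but only 4 in cluster 7. In clusters 2 and 10, which were not named, 6 and 5 did. In cluster 7, 49.3% of cells were in the S class and 17.5% in the mitotic class. In clusters 4 and 12, 84.5% and 80.3% of cells were in the class with neither. Cluster 6 was primary-granule progenitor-like (*Mpo*, *Ctsg*, *Elane* and *Prtn3*). The others were not named and are called by number. Their shares differed between the libraries, cluster 1 (led by *Hba-a2*) holding 5.69% of the kept cells labelled WT and 15.5% of those labelled KO, and cluster 5 (led by *Ccl6* and *Apoe*) 11.6% and 5.70%.

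*Cdkn1a* was higher in the KO-labelled library in 12 of 12 clusters, with the interval of the log2 ratio above 0 in 7. Its lowest level was in cluster 6, at 20.96 CPM in the WT-labelled library and 43.8 CPM in the KO-labelled library. Its highest was in cluster 5, at 160 and 370 CPM. The order of these extremes was the same in both libraries, and the ratio was largest in cluster 8 (led by *S100a10*), at 75.4 and 208 CPM. It was smallest in cluster 1, at 92.5 and 101 CPM, where the interval included 0.

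*Cdkn1b* was lower in the KO-labelled library in 12 of 12 clusters, with the interval below 0 in 3. In the WT-labelled library it was highest in cluster 5, at 92.6 CPM (interval 71.5 to 118), against a median of 31.3 CPM over the clusters. The same cluster was at 22.7 CPM with the KO label.

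*Cdkn1c* had the widest range. In the WT-labelled library it ran from 4.27 CPM in cluster 5 (3 UMIs) to 276 CPM in cluster 9, led by *Myl10* and *Clec4b2*, with *Cdkn1c* itself among the leading genes. In the KO-labelled library it ran from 0 of 504218 UMIs in cluster 8, which allows up to 5.95 CPM, to 127 CPM in cluster 9. Clusters 1, 3, 5 and 8 held little of it in both libraries, at most 20.2 CPM. The granulocyte-like clusters 4, 7 and 12 stood at 111, 248 and 89.8 CPM in the WT-labelled library. Their KO-labelled levels were 74.1, 85.9 and 59.6 CPM. Clusters 2, 6, 10 and 11, not named granulocyte-like, stood at 212, 93.7, 180 and 165 CPM in the WT-labelled library. In the KO-labelled library they stood at 121, 62.0, 126 and 93.1 CPM. The share of cells with a UMI at own depth was 0.667% in cluster 5 and 32.1% in cluster 9 of the WT-labelled library, with median depths of 1405.5 and 2765.5 UMIs. *Cdkn1c* was lower in the KO-labelled library in 10 of 12 clusters and the interval lay below 0 in 7. In both clusters where it was higher it rested on at most 5 UMIs per library.

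*Cdkn2c* was lower in the KO-labelled library in 12 of 12 clusters, with the interval below 0 in 11. Its level varied least of the 5 from cluster to cluster, between 223 and 563 CPM in the WT-labelled library and between 142 and 316 CPM in the KO-labelled library. The ratio was furthest from 0 in cluster 5, at 563 and 204 CPM, and nearest to it in cluster 10 (led by *Stfa1*), at 223 and 184 CPM.

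*Cdkn2d* was highest in cluster 2, a cluster led by mitotic genes such as *Nusap1* and *Ube2c*, at 534 CPM in the WT-labelled library and 644 CPM in the KO-labelled library. In clusters 3, 10 and 11, 69.4%, 73.0% and 90.4% of cells were in the mitotic class. *Cdkn2d* stood there at 207, 325 and 311 CPM in the WT-labelled library and at 194, 310 and 393 CPM with the KO label. It was lowest in cluster 6, at 143 and 183 CPM. It was higher in the KO-labelled library in 8 clusters and lower in 4, with the interval above 0 in 7 and below 0 in none. With each cluster weighted equally, a weighting chosen after the shares were seen, the log2 ratios of KO over WT were 0.90 for *Cdkn1a*, −1.34 for *Cdkn1b*, −0.86 for *Cdkn1c*, −0.85 for *Cdkn2c* and 0.16 for *Cdkn2d*.

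**Figure D4:**
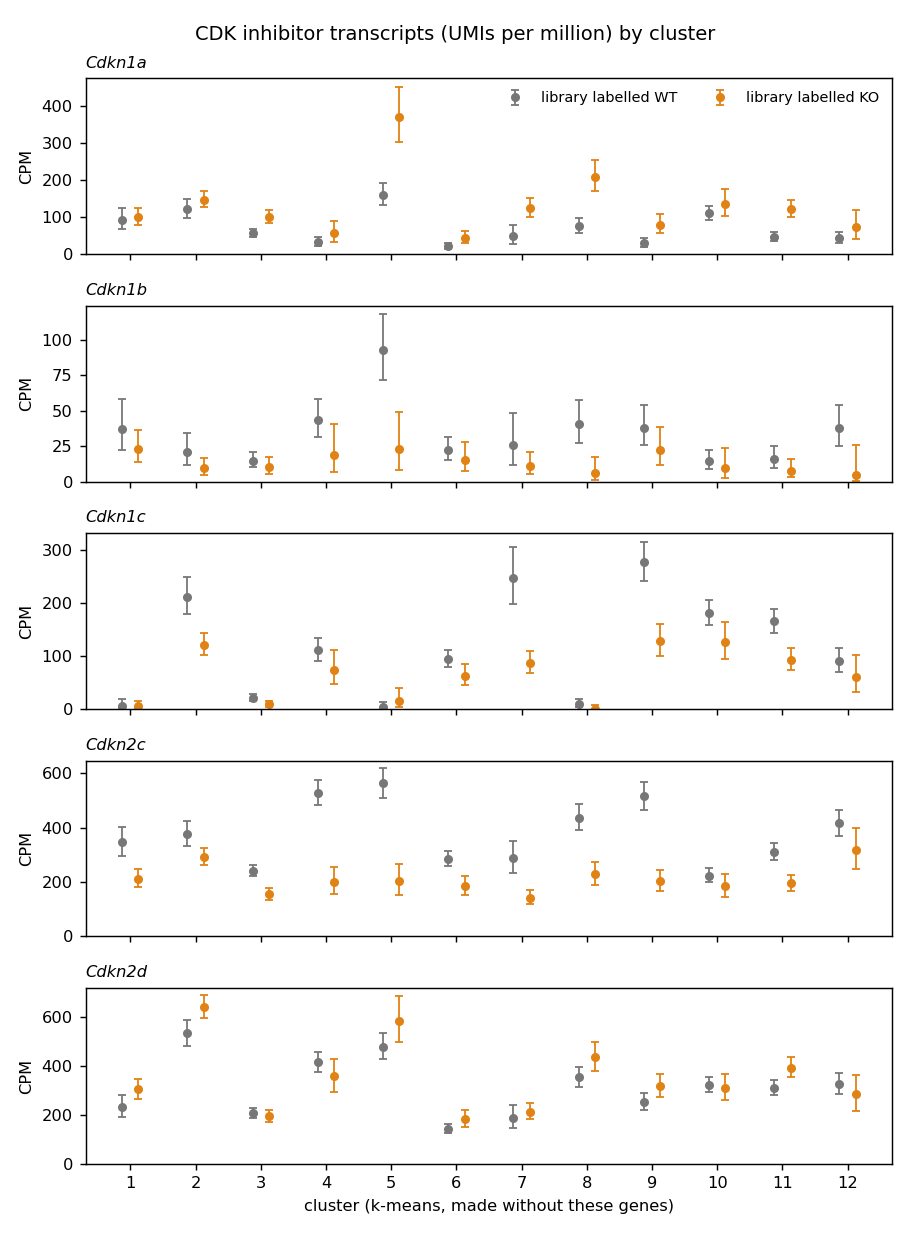
Levels of the 5 genes (CPM, vertical axes, from 0) in each of 12 clusters (horizontal axis) of the WT-labelled library (grey) and the KO-labelled library (orange). Points are CPM of summed UMIs and lines exact 95% Poisson intervals. *Cdkn1a* is highest in cluster 5 (160 and 370 CPM), *Cdkn1c* is near 0 in clusters 1, 5 and 8, and *Cdkn2c* lies lower in the KO-labelled library in all 12 clusters.

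Few cells held many transcripts of a member. Among cells with a UMI, 70.3% had exactly 1 of *Cdkn1a* in the WT-labelled library and 64.0% in the KO-labelled library, and for *Cdkn1b* these were 83.1% and 82.7%. For *Cdkn2c* the share with exactly 1 was 45.9% and 61.8%, and 163 WT-labelled cells held 5 or more against 20 of the KO-labelled library. The most in any cell was 34 UMIs of *Cdkn2c*, in a cell of cluster 9 in the KO-labelled library with 2315 UMIs in all. The 10 cells with most of a gene held between 3.30% and 10.0% of its UMIs, except for *Cdkn1b* in the KO-labelled library, where they held 25.0% of 100.

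Most cells showed 1 member or none. At 1000 UMIs per cell, 45.8% of cells in the WT-labelled library showed none of the 5 genes, 39.1% showed 1 and 13.5% showed 2. In the KO-labelled library these were 52.5%, 36.9% and 9.76%. *Cdkn1c* was seen in 5.36% of cells with a *Cdkn1a* UMI and 8.17% of cells without in the WT-labelled library, and in 5.45% and 5.23% in the KO-labelled library. *Cdkn2c* was seen in 29.9% of cells with *Cdkn1a* and 27.3% of those without in the WT-labelled library, and in 15.1% and 16.5% in the KO-labelled library. The intervals of these 4 pairs overlapped. Of 40 such comparisons between members in the 2 libraries, 1 had intervals that lay apart, in which *Cdkn2d* was seen in 35.9% of WT-labelled cells with *Cdkn1b* (interval 27.7% to 44.9%) and 26.0% of those without (24.6% to 27.5%). The KO-labelled values of that pair were 17.0% and 26.7%. *Cdkn2d* was seen in 29.2% of cells with *Cdkn2c* against 25.3% of those without in the WT-labelled library, and in 30.7% against 25.7% in the KO-labelled library, the same direction in both, though the intervals overlapped in each. *Cdkn1b* and *Cdkn1c* were never seen together in the 53 thinned KO-labelled cells that held *Cdkn1b*, which allows a share of up to 5.66%, and 6 of 128 such WT-labelled cells held both. *Gal*, which encodes the neuropeptide galanin, was at 59.7 and 60.7 CPM in the WT- and KO-labelled libraries. *Cdkn1c* was seen in 12.2% of cells with *Gal* (interval 8.01% to 17.7%) and 7.77% of those without in the WT-labelled library, and in 5.98% and 5.21% in the KO-labelled library, again with overlapping intervals.

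The study asked about variability between cells, given here by the CV (the standard deviation divided by the mean) of counts scaled to 10000 per cell. At 1000 UMIs per cell the CV of *Cdkn2c* was 1.94 in the WT-labelled library and 2.79 in the KO-labelled library, a log2 ratio of 0.52. That of *Cdkn1b* was 5.60 and 8.46 and that of *Cdkn1c* 3.81 and 4.54, with log2 ratios of 0.60 and 0.25. *Cdkn1a* and *Cdkn2d* had lower values in the KO-labelled library, 4.31 and 3.72 for *Cdkn1a* and 2.17 and 1.96 for *Cdkn2d*. The 3 genes with lower levels had higher CVs and those with higher levels had lower CVs. The CV that counting alone gives at these means moved the same way, from 1.60 to 2.17 for *Cdkn2c* and from 3.75 to 2.78 for *Cdkn1a*. Over the 2737 genes detected in at least 10% of kept cells the median log2 ratio was 0.023 at equal depth and 0.21 at own depth. *Cdkn1b*, seen in 4.93% of kept cells, is not among those genes.

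The other genes of the pathway were compared between the libraries from fixed lists, and each pair of levels gives the WT-labelled library before the KO-labelled library. The background is again the 6.79% of all genes that were higher by 1.5-fold and the 11.8% that were lower. Of the 2 other inhibitor genes with at least 50 UMIs, *Cdkn2a* was higher in the KO-labelled library, at 8.83 and 18.7 CPM from 103 and 148 UMIs, and *Cdkn3*, which encodes a phosphatase that acts on Cdk2 and Cdk1, was at 74.2 and 83.8 CPM. *Cdkn2a* encodes an INK4 protein and, in another reading frame, a protein that stabilises p53, and 3′ counts do not tell these apart. *Cdkn2b* had 3 UMIs in each library and was not compared.

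Of 12 genes for G1 cyclins and their kinases, 2 were higher by 1.5-fold and none lower, with a median log2 ratio of 0.23. The higher genes encode D-type cyclins, *Ccnd2* at 9.60 and 18.4 CPM and *Ccnd1* at 5.06 and 7.70 CPM. The remaining D-type cyclin gene, *Ccnd3*, named after its values were seen, was far more abundant and stood at 299 and 272 CPM, a log2 ratio of −0.14 (interval −0.22 to −0.061). Of 11 genes for retinoblastoma-related proteins and E2F factors, 2 were higher and none lower, with a median of 0.026. They were *Rbl1*, a relative of the retinoblastoma gene, at 20.1 and 38.3 CPM, and *E2f7*, a repressor of the family, at 3.60 and 5.56 CPM from 42 and 44 UMIs, whose interval included 0. None of 15 genes for ubiquitin ligase parts that turn over the inhibitors passed 1.5-fold, with a median of 0.038. The one with most UMIs, *Rbx1*, which encodes the RING subunit of cullin ligases, was at 370 and 454 CPM.

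Of 20 genes listed for p53, its targets and its own gene *Trp53*, 3 were higher and none lower. Their median was 0.057, beside the 0.90 of *Cdkn1a*. *Trp53*, named after its values were seen, was at 86.7 and 64.4 CPM, a log2 ratio of −0.43 (interval −0.59 to −0.27). The 2 highest were *Phlda3*, a repressor of Akt signalling, at 2.06 and 4.80 CPM from 24 and 38 UMIs, and *Sesn1*, a stress-induced sestrin, at 5.83 and 11.5 CPM. The remaining higher gene, *Pmaip1*, named after its values were seen, had the most UMIs of the 3. It was at 130 and 226 CPM from 1514 and 1788 UMIs, a log2 ratio of 0.80 (interval 0.70 to 0.90). Of 17 factors linked to quiescence, 2 were higher and none lower, with a median of 0.035. *Zfp36l2*, which encodes an RNA-binding protein that promotes mRNA decay, was at 159 and 297 CPM and the transcription factor *Foxo3* at 14.1 and 22.6 CPM. Of the 36 mitotic genes 5 were higher and 5 lower, with a median of 0.30. *Sgol1* and *Cenpa*, of the centromere, were at 16.7 and 29.8 CPM and at 185 and 301 CPM, and *Aspm* and *Mki67*, of the spindle pole and of the chromosome surface, were at 8.06 and 2.78 CPM and at 35.1 and 13.6 CPM. Of the 39 replication genes 3 were higher and 1 lower, with a median of 0.26. *Tk1*, thymidine kinase, was at 115 and 195 CPM, *Chaf1b*, of chromatin assembly, at 23.99 and 40.0 CPM, and the lower gene, *Atad2*, an ATPase with a bromodomain, at 15.9 and 5.93 CPM.

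Across the 24 sums of cluster and library, the members did not follow one another closely. Pearson correlations of log2(CPM + 10) between members, which are descriptions over points that share a library and depth, were highest for *Cdkn1b* with *Cdkn2c* (0.72) and *Cdkn1a* with *Cdkn2d* (0.61) and lowest for *Cdkn1a* with *Cdkn1c* (−0.44). For *Cdkn1b* and *Cdkn2c* the value was 0.86 over the 12 clusters of the WT-labelled library and −0.29 over those of the KO-labelled library. For *Cdkn1a* and *Cdkn2d* it was 0.60 and 0.66. Among 4051 genes with at least 500 UMIs, those whose pattern was most like that of *Cdkn1c* were *Trem3* (0.94), *Gca* (0.94), *Ptgs1* (0.93), *Ndufv3* (0.92) and *Fcnb* (0.91). For *Cdkn1b* they were *Ptprc* (0.86), *Sh3kbp1* (0.85), *Fosb* (0.81), *Tceb3* (0.79) and *Malat1* (0.79). For *Cdkn1a* they were *Gltp* (0.81), *Mospd3* (0.78), *Derl2* (0.77), *Arf6* (0.77) and *Dazap2* (0.75). For *Cdkn2c* they were *Atp11b* (0.81), *Tln1* (0.81), *Rsrp1* (0.81), *Coro1a* (0.79) and *Iqgap1* (0.78). For *Cdkn2d* the genes most like it included *Id2* (0.78), *Rab24* (0.74), *Rab14* (0.74) and *Sap30* (0.74).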

How the data were processed

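Per the labels, sorted cells of 2 pools were captured on the 10x Genomics 3′ platform with a target of 6000 cells per pool. The deposited values are raw UMI counts in 1 matrix of 27998 genes and 8309 cells that the authors made with Cell Ranger on build mm10. The submitters' processing notes give version 1.3.1, and the study's methods name a later one. Barcodes ending in 1 were taken as Kat2a-KO and those ending in 2 as Kat2a-WT. The labels do not state this, and it follows the code published with the study and the statement that Cre-positive donors were excised.

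Cells with at least 500 detected genes were kept, 3866 labelled WT and 3545 labelled KO, with medians of 2588.5 and 1884 UMIs. UMIs were summed and scaled to CPM (per 1e+06 UMIs). Sums carry exact Poisson intervals, ratios exact conditional binomial intervals and shares exact (Clopper-Pearson) intervals at 95%. They cover counting error only. With 1 library per genotype no test was run. Where depth mattered, cells with at least 1000 UMIs were thinned to 1000. Genes with at least 50 UMIs in both libraries together entered comparisons over all genes, and a fold of 1.5 was counted as a difference. A count of 0 was taken to allow 3.

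Clusters came from k-means (12 clusters, 10 starts, 20 principal components, 881 variable genes, the 5 members left out). A cluster was named only from preset markers, and the rule was tightened after values were seen to require that no other class led it with more than 1 marker. Scrublet marked 5 of 8309 cells (0.0602%), too few for it to be taken as working, so doublets were kept and the 5% with the highest score left out as an alternative. From each pathway list the text names up to 2 genes with the highest and up to 2 with the lowest ratio among those past 1.5-fold, or the gene with most UMIs where none was. The bins of mitotic UMIs, the classes within clusters and the equal cluster weights were chosen after values were seen. The members, lists and classes were chosen with earlier results of these data known. Alternatives covered the limits on genes and list UMIs, thinning, scaling, doublets and the cells with most UMIs of a gene. The result of 1 further marker list and 1 gene of the likeness lists are not reported here. The computation was tested on simulated data. Python 3.11.15, numpy 2.4.6, scipy 1.17.1, pandas 2.3.3, scikit-learn 1.9.0 and scanpy 1.11.5 were used.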

Additional observations from a re-analysis of the deposited data

Results flagged for a closer look

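Cells with fewer than 500 detected genes were left out of the comparisons, 203 of the WT-labelled library and 695 of the KO-labelled library, and they too held transcripts of all 5 genes above the 3 UMIs that a count of 0 allows. In the WT-labelled library these cells held *Cdkn1a* at 22.4 CPM, *Cdkn1b* at 44.8 CPM, *Cdkn1c* at 49.3 CPM, *Cdkn2c* at 394 CPM and *Cdkn2d* at 515 CPM. In the KO-labelled library they held *Cdkn1a* at 94.7 CPM, *Cdkn1b* at 12 CPM, *Cdkn1c* at 21 CPM, *Cdkn2c* at 212 CPM and *Cdkn2d* at 501 CPM. *Cdkn2d* was higher there than in kept cells of the same library (298 and 348 CPM in the WT- and KO-labelled libraries), with intervals that lay apart, and *Cdkn1a*, *Cdkn1b*, *Cdkn1c* and *Cdkn2c* kept the direction between libraries that they had in kept cells. The sums are small, from 5 UMIs of *Cdkn1a* in the WT-labelled library to 333 UMIs of *Cdkn2d* in the KO-labelled library.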

How the results depend on the processing

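All values here are log2 ratios. Between libraries, 31 of 35 alternative values stayed within the counting interval of the reported one, 4 moved outside it and 0 changed sign. Of 50 for mitotic over neither, 29 stayed within it and 10 had the other sign, of which 4 are called reversed, since only there did the reported interval exclude 0. Of 50 for S over neither, 30 stayed within it and 9 had the other sign, of which 2 are called reversed by the same rule. Every value called reversed had an interval of its own that included 0. No paired analysis was possible because each genotype gave 1 library, so there was also no replicate to leave out.

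In cells with at least 1000 genes, KO over WT was 0.69 for *Cdkn1a* and −0.64 for *Cdkn2c*. In those WT-labelled cells, mitotic over neither was 0.79 for *Cdkn1a*, −1.06 for *Cdkn1b*, 0.13 for *Cdkn1c*, −0.57 for *Cdkn2c* and 0.32 for *Cdkn2d*, and S over neither was 0.72, −0.76, −0.0045 (reversed), −0.46 and −0.80 in the same order. In the KO-labelled library, mitotic over neither was 0.76 for *Cdkn1a*, 1.26 for *Cdkn1b* (reversed), −0.52 for *Cdkn1c* (reversed), −0.22 for *Cdkn2c* and 0.48 for *Cdkn2d*. S over neither was there 0.60 for *Cdkn1a*, 2.41 for *Cdkn1b*, −1.42 for *Cdkn1c* and −0.68 for *Cdkn2d*. For S over neither, the intervals of *Cdkn1a* (−0.13 to 1.39) and *Cdkn1b* (−0.32 to 7.82) included 0.

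With 1 UMI of a list enough, mitotic over neither was −0.039 for *Cdkn1a* (reversed), 1.03 for *Cdkn1c* and −0.49 for *Cdkn2d* in the WT-labelled library, and −0.20 for *Cdkn1a*, −0.53 for *Cdkn1b* and −0.17 for *Cdkn2d* (reversed) in the KO-labelled library. S over neither was then −0.26 for *Cdkn1a* (reversed), −0.74 for *Cdkn1b*, 0.75 for *Cdkn1c*, −0.20 for *Cdkn2c* and −0.65 for *Cdkn2d* in the WT-labelled library, and −0.32 for *Cdkn1a*, 0.46 for *Cdkn1b* and −0.67 for *Cdkn2d* in the KO-labelled library. With 5 UMIs needed, mitotic over neither for *Cdkn2d* was 0.13 (WT) and 0.36 (KO), and S over neither in the WT-labelled library was −0.86 for *Cdkn2c* and −1.43 for *Cdkn2d*.

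In thinned cells, KO over WT was −0.88 for *Cdkn2c* and 0.075 for *Cdkn2d*. Mitotic over neither was 0.88 for *Cdkn1c* and 0.18 for *Cdkn2d* in the WT-labelled library and 0.57 for *Cdkn2d* in the KO-labelled library, where S over neither was −0.84 for *Cdkn2d*. The cause of these shifts was not tested. *Cdkn1b* had the fewest UMIs of the 5 genes, 100 in the KO-labelled library.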
